A study of Homo sapiens with 12 samples.

Results

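RFX7 knockdown under Nutlin-3a was examined as siRFX7 against siControl in HCT116 cells that had all received the drug, so positive log2 values mean a higher level with siRFX7. The comparison used 6 of the study's 12 libraries, 3 per group, and its result table listed 19393 of the 23195 genes of the series. A mean normalized count of 50 or more over the 12 libraries was reached by 13722 listed genes, and the 11517 of them annotated as protein-coding are described here.

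HCT116 is a human colorectal carcinoma cell line with wild-type p53. Cells of the siRFX7 Nutlin-3a group were transfected with siRNA against RFX7 and cells of the siControl Nutlin-3a group with control siRNA, and both then received 10 µM Nutlin-3a during 24 h. The other 6 libraries came from cells with the same siRNAs that received the solvent DMSO in place of the drug. Libraries were made by polyA selection from 500 ng of total RNA. The siRNA sequences, and how many siRNAs were used against RFX7, are not given in the sources used here, so 1 knockdown reagent is set against 1 control. The labels number the replicates without saying that they were separate cultures, so p-values measure only the spread between these samples, which may be technical. The values used were the authors' DESeq2 result tables, which give statistics per group. Levels are therefore group means in normalized counts, recovered from those tables, and the spread and overlap of single libraries cannot be shown.

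Nutlin-3a blocks the binding of MDM2 to p53 and so stabilises p53 without damaging DNA. p53 switches on CDKN1A, the inhibitor p21, and arrested cells then shut down cell cycle genes, many of which carry a promoter element called CHR. RFX7 belongs to the RFX family of winged-helix transcription factors, which bind X-box motifs, and has been described as acting downstream of p53 on a group of growth-restraining genes.

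The knocked-down gene was looked at before any other. RFX7 (ENSG00000181827, GRCh38 chromosome 15, minus strand) had group means of 1332 normalized counts in siControl Nutlin-3a and 302 in siRFX7 Nutlin-3a, computed from the authors' deposited tables, so 22.6% remained. Its paralog RFX5, the DNA-binding subunit of the factor that switches on MHC class II genes, was at 3104 in siControl Nutlin-3a and at 676 in siRFX7 Nutlin-3a, computed from the authors' deposited tables. RFX5 thus had a log2 change of -2.20 (standard error, SE, 0.08; DESeq2 adjusted p 9.98e-164) in the authors' deposited table. RFX2 and RFX1 were lower by less, at -0.37 and -0.24, and RFX3 at -0.16 was not called, in the authors' deposited table. Of the partners of RFX5, RFXANK at 0.17 and RFXAP at 0.24 were not called in the authors' deposited table. RFX2 and RFXANK overlap genes on the other strand, so their counts are uncertain. In all, 4 of the 7 listed genes of the family and its partners fell and 3 were not called, against 18.5% of all 11517 genes lower. Their median log2 change was -0.24 in the authors' deposited table. The 4 include RFX7, the gene targeted by the siRNA, so the count is partly fixed in advance.

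At a DESeq2 adjusted p below 0.05, 4606 of the 11517 genes (40.0%) changed according to the authors' deposited table: 2471 (21.5%) were higher and 2135 (18.5%) lower. These shares are the background against which each list of genes below is read. Most changes were small: the median absolute log2 fold change of a called gene was 0.35, and 80.5% of the calls were under 0.58, in the authors' deposited table. Over all 11517 genes the median log2 fold change was 0.01, with a 5th percentile of -0.51 and a 95th of 0.54, in the authors' deposited table. A change of at least 1 on the log2 scale was called upward in 112 genes and downward in 120, and a change of at least 2 in 4 and 18 genes, in the authors' deposited table. The share called rose with the mean count, from 28.1% of the 654 genes between 50 and 100 to 58.7% of the 339 genes at 10000 or more, while the median standard error fell from 0.22 to 0.06. Small changes of abundant genes were thus called where equal changes of scarce genes could not be.

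**Figure D1:**
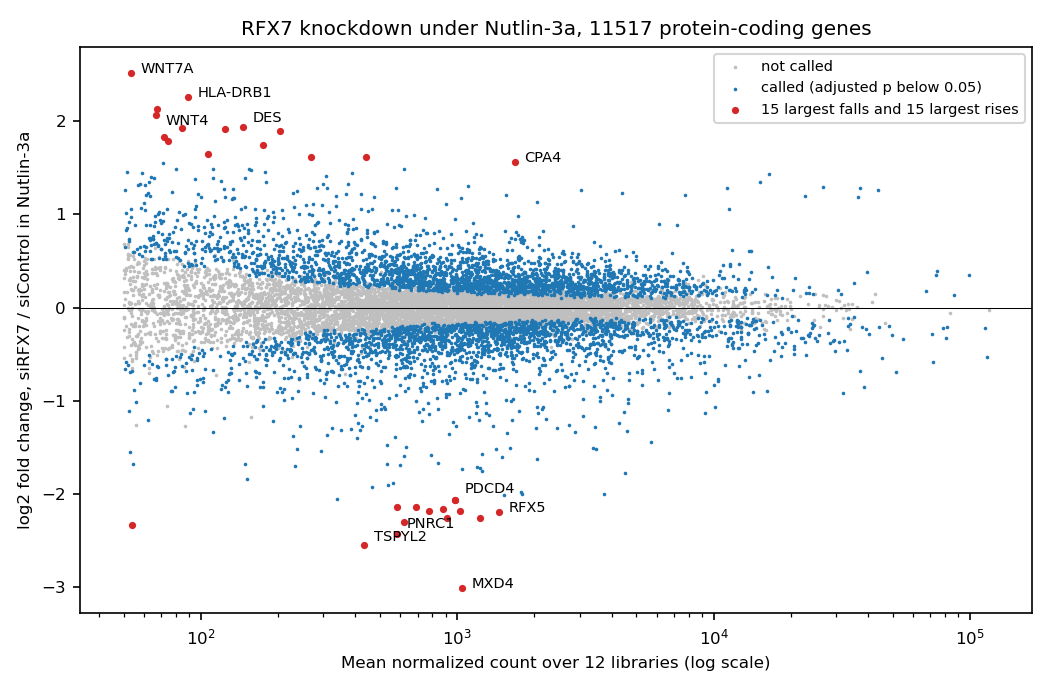
Log2 fold change of siRFX7 over siControl in Nutlin-3a (vertical) against the mean normalized count over 12 libraries (horizontal, log scale) for 11517 protein-coding genes, 1 point per gene, from the authors' deposited table. Called genes are blue and the 15 largest falls and 15 largest rises red. The falls reach -3.01 (MXD4) and the rises 2.52 (WNT7A). Most of these rises sit at lower mean counts than most of the falls, but CPA4 has the highest mean of the 30 (1672). The mean includes the DMSO groups, where ASPM is at 2283 against 84.1 in siControl Nutlin-3a.

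Labels and library composition were checked once. Among the colon epithelium markers, 8 of 13 were listed; EPCAM was at 6077 and 6019 normalized counts in siControl and siRFX7 Nutlin-3a, and the keratin gene KRT18 at 49970 and 36469, computed from the authors' deposited tables. CDH17, CDX1, LGALS4, CEACAM5 and CEACAM6 were not in the table. Of the 6 epithelial markers with a mean of 50 or more, CDH1 rose (0.26) and KRT18 (-0.45), KRT19 (-0.33) and KRT8 (-0.32) fell, with a list median of -0.17, in the authors' deposited table. Of 16 markers of fibroblasts, blood, endothelium and liver, 4 were listed, with a summed level of 386 in siControl and 549 in siRFX7 Nutlin-3a, computed from the authors' deposited tables. Nearly all of it was the collagen gene COL1A1, which rose by 0.52 in the authors' deposited table, while the defining markers PTPRC, CD3E, DCN, LUM, PECAM1 and ALB were not in the table. Mean normalized counts summed to 2.59e+07 to 2.74e+07 per group. In bulk samples, fewer cells of a type and less RNA per cell cannot be told apart.

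Of the 15 largest falls, 5 were RFX7 targets (MXD4, TSPYL2, PNRC1, RFX5 and PDCD4) and 5 were mitotic genes. RFX5, described above, is counted both in the RFX family list and among the RFX7 targets. The RFX7 targets are 20 genes described as bound and activated by RFX7; the list may rest in part on these libraries, so its direction is not independent evidence. All 19 listed members passed the mean filter and 17 fell, against 18.5% of all genes, with a median of -0.99 against 0.01 for all genes, in the authors' deposited table. MXD4, a repressor that competes with MYC for MAX, was at 2766 normalized counts in siControl and 344 in siRFX7 Nutlin-3a, computed from the authors' deposited tables. That is a log2 change of -3.01 (SE 0.09, DESeq2 adjusted p 7.03e-248), the largest fall of the comparison, in the authors' deposited table. PNRC1, a nuclear receptor coactivator, was at 1321 and 245, and the chromatin protein TSPYL2 at 635 and 108, computed from the authors' deposited tables. PDCD4, which restrains translation initiation, was at 2032 and 487, computed from the authors' deposited tables. TSPYL2 fell by 2.55 (SE 0.11), PNRC1 by 2.43 (SE 0.08) and PDCD4 by 2.06 (SE 0.08) (log2) in the authors' deposited table.

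Several targets act as brakes on PI3K and mTOR signalling. DDIT4, an mTORC1 inhibitor, had 7731 normalized counts in siControl and 2255 in siRFX7 Nutlin-3a, computed from the authors' deposited tables, and a log2 change of -1.78 (SE 0.09). The sestrin SESN3 was at 236 and 66.0 and the PI3K regulatory subunit PIK3R3 at 141 and 64.3, computed from the authors' deposited tables, with log2 changes of -1.84 and -1.14. The cyclin gene CCND1, far the most abundant member, went from 59509 to 31488 and fell by 0.92 on the log2 scale, computed from the authors' deposited tables. TSPYL1, at 50.1% of its siControl level, KLHL24 (-0.99), FAM214A (-0.55), ABAT (-0.48), IP6K2 (-0.46), TOB1 (-0.43), JUNB (-0.40) and ARL15 (-0.27) fell as well, in the authors' deposited table. REV1 at -0.07 (SE 0.09) and FAM214B at 0.18 (SE 0.08) were not called, and MAF was not in the table. PDCD4, TSPYL1, ABAT, JUNB, REV1 and CCND1 each overlap a protein-coding gene on the other strand, and since strand handling is not given in the sources used here, their counts are uncertain. PIK3R3 overlaps AL358075.4 on its own strand, so its count is uncertain whatever the strand setting.

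**Figure D2:**
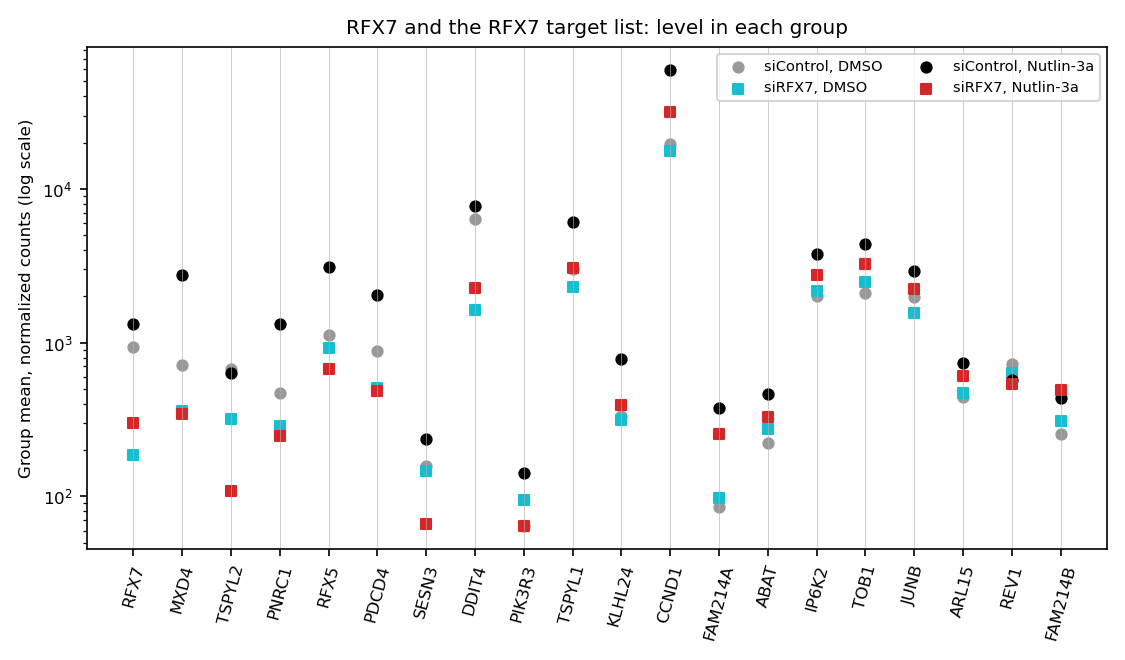
Group mean in normalized counts (vertical, log scale) of RFX7 and the 19 listed RFX7 targets in the 4 groups, 1 marker per group, recovered from the authors' deposited tables; no error is drawn because single libraries are not used. For MXD4 to ARL15 the siRFX7 Nutlin-3a marker (red square) lies below the siControl Nutlin-3a marker (black circle), from 344 against 2766 in MXD4 to 610 against 732 in ARL15.

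Promoter sequences were read for the letters of an RFX half-site, GTTGCTA, on both strands of windows from 250 bases before to 50 bases after each RefSeq start site. Of the 11517 genes, 9501 had at least 1 window (82.5%), and 340 of those (3.58%) held the letters. Among the RFX7 targets, 4 of 18 genes with a window held them (22.2%), against 4 of 102 genes that fell by 1 or more (3.92%) and 0 of 39 mitotic genes. The matches in the targets are printed from RefSeq (GRCh38.p14), 30 bases in the direction of transcription, with the half-site in capitals, because MXD4 is the largest fall and the other 3 are targets with smaller falls. All 4 genes lie on the minus strand, and in IP6K2 the site is on the strand opposite to transcription and reads TAGCAAC. The positions are chr4:2262322-2262351, chr6:116280053-116280082, chr15:52652067-52652096 and chr3:48717312-48717341 in the order printed.
MXD4: ccaccacgtgctGTTGCTAagctcgggctt
TSPYL1: ggtaaaattactGTTGCTAtgggtaaattc
FAM214A: gctgtgagtgctGTTGCTAtgtgcgctctt
IP6K2: atcctggcacccTAGCAACagcgcctttca
The falls of these 4 genes run from -3.01 to -0.46 (log2) in the authors' deposited table. A match is a description of these windows, and PNRC1, TSPYL2, PDCD4 and RFX5, which fell by more than 2, held no match in theirs.

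The mitotic list holds cyclins, kinases, kinesins and kinetochore genes that act in G2 and mitosis. All 47 members passed the mean filter, and 45 fell with siRFX7 in Nutlin-3a, against 18.5% of all genes, with a median of -1.12 in the authors' deposited table. In 27 of them both Nutlin-3a groups were at 50 or more, while in 11 both were below 50, so that these 11 passed the filter through their DMSO levels. ASPM was at 84.1 normalized counts in siControl Nutlin-3a and at 2283 in siControl DMSO, computed from the authors' deposited tables. With siRFX7 in Nutlin-3a, ASPM, which organises spindle poles, was at 18.5, a log2 change of -2.19 (SE 0.25, DESeq2 adjusted p 6.95e-17) in the authors' deposited table. ESCO2, a cohesin acetyltransferase that overlaps PBK on the other strand, went from 41.3 to 9.09, a log2 change of -2.18 in the authors' deposited tables. The kinase NEK2 went from 46.7 to 10.4, the kinetochore gene SPC25 from 28.1 to 6.40 and the centromeric histone gene CENPA from 23.7 to 5.72, computed from the authors' deposited tables. These are log2 fold changes of -2.16, -2.14 and -2.05, with standard errors of 0.30, 0.38 and 0.40, in the authors' deposited table. PRC1, a microtubule bundler of the midzone, had the lowest level, 6.78 in siControl and 1.35 in siRFX7 Nutlin-3a, computed from the authors' deposited tables. Its log2 fold change of -2.33 carried a standard error of 0.81 (DESeq2 adjusted p 0.0181) in the authors' deposited table, and the call is lost at a threshold of 0.01.

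Members with higher levels fell too. FOXM1, a transcription factor of G2 genes, went from 221 to 71.4 normalized counts, the kinase PLK1 from 252 to 88.2, cyclin B1 (CCNB1) from 624 to 287 and MKI67 from 570 to 266, computed from the authors' deposited tables. Their log2 fold changes were -1.63 (SE 0.13), -1.51 (0.12), -1.12 (0.09) and -1.10 (0.20) in the authors' deposited table. TOP2A (-0.88) and CDK1 (-0.77) fell less, and ECT2, at -0.24, was among the smallest falls of the list, in the authors' deposited table. NEK2 has processed pseudogene copies, and SPC25, FOXM1, PLK1 and CDC25C overlap genes on the other strand and PRC1 and CENPA genes on their own strand, so reads could be shared there. PTTG1 had a log2 change of 0.36 (SE 0.16) and was not called, and KIF20A, a kinesin of late mitosis, rose by 0.81 (SE 0.12) in the authors' deposited table. KIF20A overlaps BRD8 and CDC23 on the other strand; BRD8 had a log2 change of -0.25 and CDC23 of 0.29 in the authors' deposited table, and their part in the KIF20A value was not tested.

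**Figure D3:**
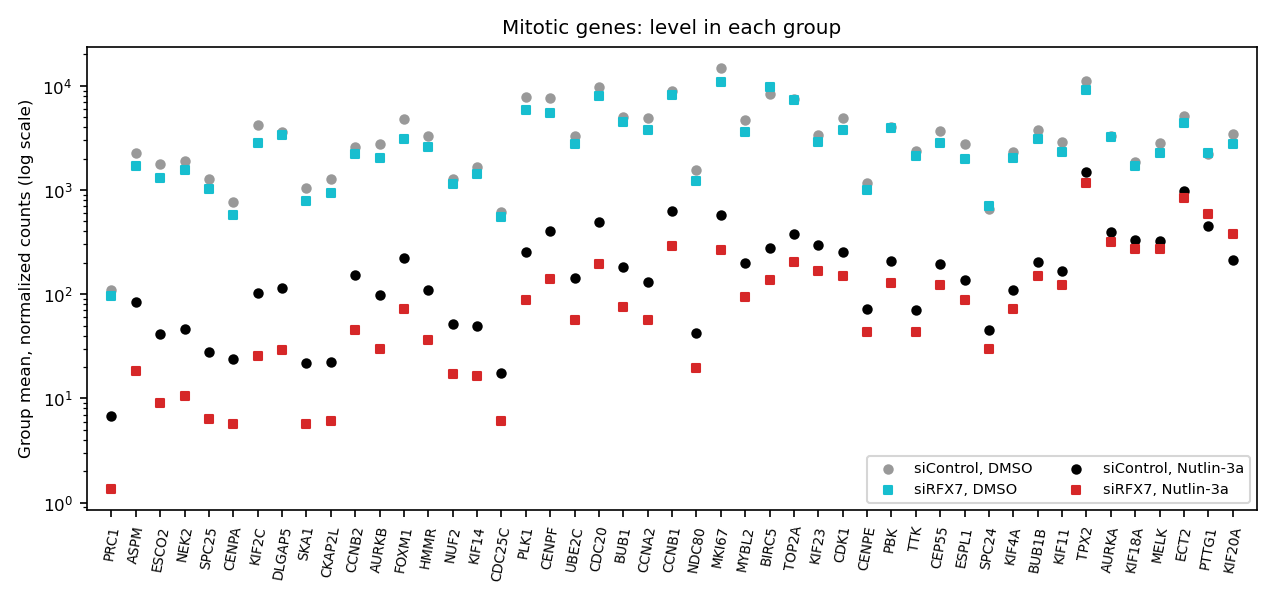
Group mean in normalized counts (vertical, log scale) of the 47 mitotic genes in the 4 groups, ordered by the siRFX7 effect in Nutlin-3a, recovered from the authors' deposited tables. Both Nutlin-3a groups lie below both DMSO groups for every gene drawn, and the siRFX7 Nutlin-3a marker lies below the siControl Nutlin-3a marker for all genes except PTTG1 (585 against 454) and KIF20A (374 against 213).

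The letters TTTGAA, the core of the CHR element, were searched in the same windows on both strands. They occurred in 27 of the 39 mitotic genes with a window (69.2%), against 1262 of 9501 genes (13.3%). Over the whole comparison, the share with a match was 39.2% in genes that fell by 1 or more (40 of 102), 248 of 1649 in genes that fell by less, 12.9% in genes not called and 11.3% in genes that rose by less than 1. In genes that rose by 1 or more the share was 17.6% (12 of 68), higher than in genes not called, but only 60.7% of them had a window, so the check is void for that group. DNA replication genes, which also belong to the cell cycle, had the letters in 0 of 36. The following 5 windows are shown as examples of genes that fell by more than 1.5 (log2) with a match within 30 bases of the start site. The positions are chr2:26786026-26786055 (plus strand), chr15:59105105-59105134 (plus), chr16:23678848-23678877 (plus), chr5:138331817-138331846 (minus) and chr15:90994538-90994567 (minus), GRCh38.p14, from RefSeq, with TTTGAA in capitals.
CENPA: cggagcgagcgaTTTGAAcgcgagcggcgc
CCNB2: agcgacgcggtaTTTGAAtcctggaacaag
PLK1: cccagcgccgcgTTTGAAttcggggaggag
CDC25C: gctggcggaaggTTTGAAtggtcaacgcct
PRC1: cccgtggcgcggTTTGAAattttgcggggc
CCNB2 went from 154 to 45.8 normalized counts and CDC25C from 17.6 to 6.06, computed from the authors' deposited tables.

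Genes of the other cell cycle phases moved less uniformly. Of 40 DNA replication genes, 21 fell and 5 rose, with a median of -0.25, in the authors' deposited table. The replication initiator MCM10 went from 69.1 to 14.5 normalized counts and the nucleotide reductase subunit RRM2 from 266 to 66.6, computed from the authors' deposited tables. MCM7, a helicase subunit with a far higher level, went from 2404 to 1096, a log2 change of -1.13 (SE 0.06), in the authors' deposited tables. Those that rose were led by the sliding clamp PCNA (0.46), GINS1 (0.44) and POLA2 (0.33) in the authors' deposited table. RRM2 has pseudogene copies and its count is uncertain.

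Homologous recombination genes fell in 11 of 17 members, and the other 6 were not called, with a median of -0.81, in the authors' deposited table. Both Nutlin-3a groups were at 50 or more in only 6 of the 17. In 7 of the 17 both were below 50, so that these 7 passed the filter through their DMSO levels. The helicase BLM went from 61.7 to 16.5 normalized counts, POLQ from 50.1 to 21.2 and BRCA1 from 120 to 70.0, computed from the authors' deposited tables. Their log2 fold changes were -1.90, -1.24 and -0.78, and BRCA2 at -0.35 (SE 0.26) was not called, in the authors' deposited table. Of 17 genes of the G1 machinery, 7 fell, led by CCNE2 (-1.30), CCND1 (-0.92) and CDK6 (-0.77), and 4 rose, CCND3 (0.64), RB1 (0.38), E2F7 (0.31) and CDK2 (0.16), in the authors' deposited table. CDK6 went from 4749 to 2776 and CCND3 from 770 to 1202, computed from the authors' deposited tables. ZNF367, KIF18B and GTSE1, which are in none of the lists and were named as 3 of the 15 largest falls, were at 40.0, 61.3 and 56.6 normalized counts in siControl and at 8.08, 12.8 and 13.5 in siRFX7 Nutlin-3a, computed from the authors' deposited tables.

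CDK inhibitors did not move together: 4 of 8 fell and 1 rose, with a median of -0.19, in the authors' deposited table. CDKN1A, the inhibitor induced by p53, went from 121149 to 154897 normalized counts, computed from the authors' deposited tables, a rise of 0.35 (SE 0.09, DESeq2 adjusted p 0.00117). CDKN2C, in contrast, went from 18.6 to 5.72, and CDKN2B (-0.54), CDKN2A (-0.46) and CDKN1B (-0.20) fell, in the authors' deposited table. Of 38 p53-activated genes, 17 rose and 6 fell, against 21.5% and 18.5% of all genes, with a median of 0.17, in the authors' deposited table. The mitophagy gene SPATA18 (0.81), the tetraspanin CD82 (0.61), the ceramidase ACER2 (0.60), TIGAR (0.55), SESN1 (0.54) and the death receptor FAS (0.54) rose most in the authors' deposited table. The 6 that fell were the secreted factor GDF15 (-0.50), TP53INP1 (-0.50), PLK3 (-0.37), GADD45A (-0.31), the repair gene XPC (-0.21) and MDM2 (-0.21) in the authors' deposited table. GDF15 went from 43435 to 30643 and MDM2 from 74982 to 64906 normalized counts, computed from the authors' deposited tables. BAX at 0.01 and ZMAT3 at 0.02 were not called. Within the BCL2 family 5 of 14 rose and 2 fell (median 0.06), among them the pro-apoptotic BCL2L11 (0.54) and BAK1 (0.43) upward and HRK (-0.61) downward, in the authors' deposited table.

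Lists on growth and translation gave a mixed picture: most cytosolic ribosomal protein genes fell, and most genes of ribosome biogenesis and most PI3K and mTOR brakes were not called. MYC, a transcription factor that drives growth genes, went from 15919 to 8964 normalized counts, computed from the authors' deposited tables, a fall of 0.83 (SE 0.07) on the log2 scale. In the MYC, MAX and MXD network 6 of 12 members fell and 6 were not called (median -0.29): beside MXD4 and MYC these were MLXIPL (-0.56), MXI1 (-0.46), MGA (-0.43) and MNT (-0.35), in the authors' deposited table. MAX itself, at 0.05, was not called. Of 78 cytosolic ribosomal protein genes, 51 fell and 27 were not called, with a median of -0.29 and a range from -0.89 to 0.20, in the authors' deposited table. Their summed level was 1265740 normalized counts in siControl and 1007260 in siRFX7 Nutlin-3a, computed from the authors' deposited tables. RPL13A (-0.89), RPL3 (-0.85) and RPL32 (-0.71) had the largest falls, in the authors' deposited table; ribosomal protein genes have many processed pseudogenes, so their counts are uncertain. Ribosome biogenesis genes fell in 6 of 26, near the 18.5% of all genes, including FBL (-0.49) and NOP14 (-0.47), and 20 were not called, with a median of -0.06, in the authors' deposited table. The antiproliferative BTG and TOB family fell in 4 of 5 members (median -0.35), with TOB2 at -0.48 and BTG1 at -0.35, while BTG2 at -0.12 was not called, in the authors' deposited table. Among 21 brakes on PI3K and mTOR signalling (median 0.08), 4 fell, near the 18.5% of all genes, and SESN1 rose. Beside the RFX7 targets SESN3, DDIT4 and PIK3R3, DEPTOR fell by 0.55 in the authors' deposited table.

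Transcripts of the mitochondrial genome were higher. Of the 13 mRNAs that it encodes, a list added after the data were seen, 12 rose, against 21.5% of all genes, with a median of 1.26, in the authors' deposited table. MT-CO1, a subunit of complex IV, went from 32292 to 77284 normalized counts, and MT-CYB of complex III from 11394 to 30726, computed from the authors' deposited tables. Their log2 fold changes were 1.26 (SE 0.18, DESeq2 adjusted p 1.02e-10) and 1.43 (SE 0.28, DESeq2 adjusted p 4.41e-06) in the authors' deposited table. MT-ND6, the member transcribed from the other strand of the mitochondrial genome, was at 522 and 628 and was not called (0.27, standard error 0.28). All mitochondrially encoded genes together made up 0.867% of normalized counts in siControl and 1.92% in siRFX7 Nutlin-3a, and 0.58% and 1.04% in the DMSO groups, computed from the authors' deposited tables. This share also varies with RNA quality and polyA selection, and its part in the other results was not tested. The nuclear genes for the respiratory chain did not follow: 13 of 77 rose and 7 fell, with a median of 0.10, in the authors' deposited table. ATP5F1C, at -0.96, and COX7A2, at -0.56, were the largest falls among them and NDUFC2 and ATP5S, both at 0.45, the largest rises, in the authors' deposited table.

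Stress programmes of the endoplasmic reticulum and of amino acid supply were examined next. Among 20 ER chaperones and unfolded protein response genes, 11 rose and 9 were not called, with a median of 0.21, in the authors' deposited table. The chaperone HSPA5 went from 37310 to 48603 normalized counts and the disulfide isomerase PDIA4 from 12337 to 18733, computed from the authors' deposited tables, with rises of 0.38 and 0.60. CRELD2 (0.71), MANF (0.55) and DNAJB9 (0.51) rose as well, in the authors' deposited table. Of 39 genes of the ATF4 programme, the response to amino acid shortage, 15 fell and 6 rose, with a median of -0.10, in the authors' deposited table. Asparagine synthetase (ASNS) went from 50.7 to 23.9 and the serine synthesis enzyme PHGDH from 2271 to 1402, computed from the authors' deposited tables. In the other direction, the transporter SLC1A4 went from 40.0 to 79.4 and ATF5 from 682 to 1113, computed from the authors' deposited tables. ATF4 itself, at -0.12, and CHAC1, at 0.20, were not called.

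Immune genes gave a mixed picture. Interferon-stimulated genes rose in 7 of 17 members with a mean of 50 or more and fell in 2, with a median of 0.35, in the authors' deposited table. IFI6 went from 140 to 282 normalized counts, IFIT1 from 55.2 to 108 and the RNA sensor IFIH1 from 235 to 442, computed from the authors' deposited tables, with log2 fold changes of 1.01, 0.97 and 0.91. STAT2 (-0.56) and IFIT5 (-0.26) fell in the authors' deposited table. In MHC class I presentation, 3 of 11 genes fell, led by HLA-F (-0.98) and HLA-E (-0.84), and 3 rose, NLRC5 (0.75), TAPBP (0.42) and TAP1 (0.15), with a median of 0.05, in the authors' deposited table. HLA-E went from 3838 to 2137, computed from the authors' deposited tables, while HLA-B at 0.01 was not called. Of 10 listed class II genes, the genes on which RFX5 acts, only 3 had a mean of 50 or more. Of all 10, without the mean filter, 4 rose, 1 fell and 5 were not called (median 0.94), most of them at low levels, in the authors' deposited table. Without that filter, 15% of the 19393 listed genes were higher and 13.6% lower. HLA-DRB1 rose by 2.26 (SE 0.22) and HLA-DQB1 fell by 0.81 (SE 0.23) in the authors' deposited table. HLA-DRB1 was at 35.5 in siControl and 170 in siRFX7 Nutlin-3a, and at 19.0 and 131 in DMSO, so it passed the mean filter through the siRFX7 groups. HLA-DQB1 was at 95.4 and 54.5, computed from the authors' deposited tables. HLA genes have close paralogs that can share reads, and the blood markers named above were not in the table.

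The largest rise was that of WNT7A, a secreted WNT ligand. WNT7A was at 27.0 normalized counts in siControl and 155 in siRFX7 Nutlin-3a, computed from the authors' deposited tables, a log2 change of 2.52 (SE 0.28, DESeq2 adjusted p 3.71e-18). WNT4 went from 42.0 to 175 (2.06, standard error 0.22) and WNT7B, at a higher level, from 418 to 1021 (1.29, standard error 0.08), in the authors' deposited tables. The mean filter uses all 4 groups, and WNT7A and WNT4 passed it only through the siRFX7 Nutlin-3a group, where they are high, so ligands are counted here without it. Of 13 listed WNT ligands, 7 rose, 2 fell and 4 were not called, against 15% higher and 13.6% lower of the 19393 listed genes, in the authors' deposited table. The falls were WNT16, from 4061 to 2475, and WNT3, from 172 to 120. Among 10 genes that report or limit WNT signalling (median 0.18), NOTUM (1.05), AXIN2 (0.84), TCF7 (0.40) and BAMBI (0.38) rose and RNF43 (-0.68) and DKK1 (-0.48) fell, in the authors' deposited table.

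The other genes among the 15 largest rises mostly had low levels in siControl Nutlin-3a. The sodium channel genes SCN3B and SCN2A went from 44.3 to 195 and from 89.2 to 279 normalized counts, computed from the authors' deposited tables. Like WNT7A and WNT4, both passed the mean filter only through the siRFX7 Nutlin-3a group, where they are high. Their place among the largest rises is thus partly fixed by the filter. CPLX2, which acts in synaptic vesicle release, went from 67.7 to 256 and the Notch ligand DNER from 85.2 to 316, computed from the authors' deposited tables. The intermediate filament gene DES went from 73.8 to 283 and the myosin light chain kinase MYLK from 91.4 to 307, computed from the authors' deposited tables. LAMP3 (374 to 1144) and the carboxypeptidase CPA4 (1269 to 3744) stood out among these 15 rises by their higher levels, computed from the authors' deposited tables. MDGA1 (1.93), NCMAP (1.83), BTN3A3 (1.79) and PALM3 (1.62) complete them, in the authors' deposited table. SCN2A overlaps SCN3A, and BTN3A3 has close paralogs, so both are uncertain.

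**Figure D4:**
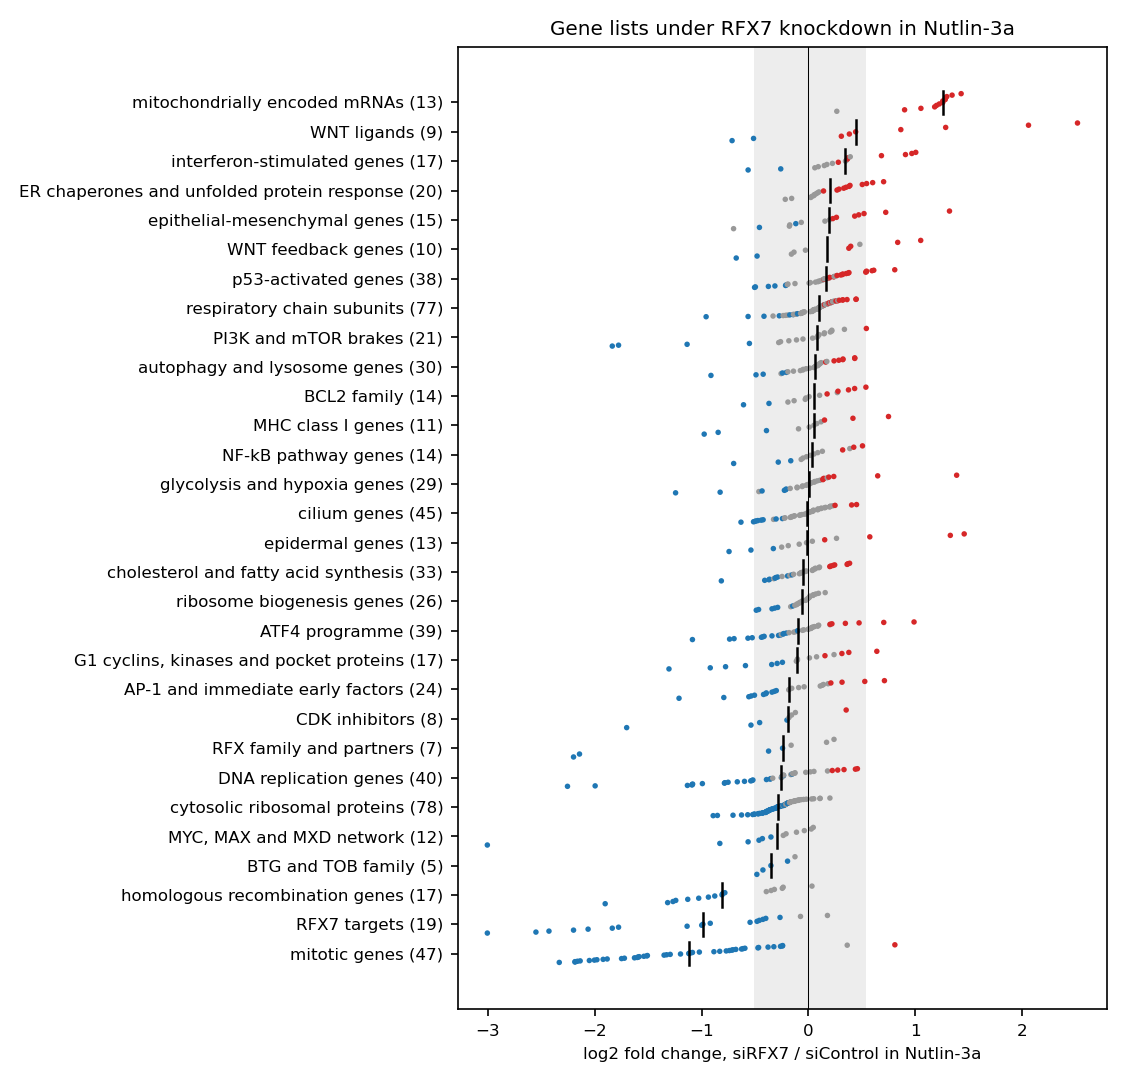
Log2 fold change of siRFX7 over siControl in Nutlin-3a (horizontal) for the members of 30 gene lists with a mean of 50 or more (number in brackets), 1 point per gene, from the authors' deposited table; red points rose, blue points fell, grey points were not called, and the black bar is the median. The grey band spans the 5th to 95th percentile of all 11517 genes (-0.51 to 0.54); the medians of the mitotic genes (-1.12), RFX7 targets (-0.99) and homologous recombination genes (-0.81) lie below it and that of the mitochondrially encoded mRNAs (1.26) above it.

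The remaining lists had medians between -0.18 and 0.20. Of all 11517 genes, 21.5% were higher and 18.5% lower. The glycolysis, autophagy and NF-kB lists below were near both shares, and the cilium genes were near the share lower. Immediate early and AP-1 factors fell in 11 of 24 members and rose in 4 (median -0.18), with FOSB at -1.21, MAFF at -0.79 and EGR1 at -0.50, against EGR2 at 0.71 and JUN at 0.53, in the authors' deposited table. Cholesterol and fatty acid synthesis genes fell in 9 of 33 and rose in 7 (median -0.05), led by the desaturase FADS1 at -0.81, in the authors' deposited table. Glycolysis and hypoxia genes rose in 7 of 29 and fell in 6 (median 0.01), and the muscle-type phosphofructokinase PFKM went from 6984 to 2951 normalized counts, computed from the authors' deposited tables. In the same list the hexokinase HKDC1 went from 22.3 to 58.5, computed from the authors' deposited tables. Autophagy and lysosome genes rose in 7 of 30 and fell in 5 (median 0.06), with MITF at -0.91 and TFEB at 0.43, in the authors' deposited table. NF-kB pathway genes rose in 3 of 14 and fell in 3 (median 0.04), and epidermal genes rose in 4 of 13 and fell in 3 (median -0.02), with TRIM29 at 1.46 and CSTA at -0.74, in the authors' deposited table. The epidermal CLCA2 and TGM1 passed the mean filter only through the siRFX7 Nutlin-3a group. Of all 21 listed epidermal genes, 7 rose and 5 fell, against 15% higher and 13.6% lower of the 19393 listed genes, in the authors' deposited table. Epithelial-mesenchymal genes rose in 7 of 15 and fell in 2 (median 0.20), with fibronectin (FN1) at 1.32, in the authors' deposited table. Cilium genes, the classical targets of other RFX factors, fell in 9 of 45 and rose in 3 (median -0.01), with IFT140 at -0.63 and BBS4 at 0.45, in the authors' deposited table.

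The siRFX7 effect was then set beside that in DMSO, where 4811 of the same 11517 genes (41.8%) were called, 2134 higher (18.5%) and 2677 lower (23.2%); the 2 comparisons share no library. Both treatments called 2917 genes, 2802 in the same direction and 115 in opposite directions, which is 60.8% of the Nutlin-3a calls and 58.2% of the DMSO calls shared in direction. Across the 11517 genes, which are not independent replicates, Pearson's r of the effects was 0.66. The difference of the effects, Nutlin-3a minus DMSO, was called by a two-sided z test in 1343 genes (11.7%), 753 above 0 and 590 below 0. Those counts, out of 11517 genes, are the background for the differences of each list below. With both effects rescaled to equal total counts the calls became 575 above and 684 below, so the majority direction depends on the scaling.

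Of the 120 genes that fell by 1 or more in Nutlin-3a, 93 also fell in DMSO and 1 rose, with a median of -0.42 there against -1.31, in the authors' deposited tables. Since these genes were chosen by their Nutlin-3a value, a smaller median in DMSO and a difference below 0 are both partly fixed by the choice. With that limit, the difference was called for 89 of them and was below 0 in each. Of the 112 genes that rose by 1 or more, 99 also rose in DMSO and 1 fell, with a median of 0.95 against 1.24, in the authors' deposited tables. The difference was called for 28 of these, 19 above 0 and 9 below, and the choice by the Nutlin-3a value favours differences above 0 here.

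Among the RFX7 targets, 9 of 19 fell and 3 rose in DMSO (median -0.14) in the authors' deposited table, and the difference was below 0 for 15. MXD4 went from 715 to 360 normalized counts in DMSO, computed from the authors' deposited tables, and its difference was -2.01 (z test adjusted p 7.84e-53). TOB1 and PIK3R3 rose in DMSO, by 0.24 and 0.56, and fell with Nutlin-3a, as listed in the authors' deposited tables, with differences of -0.67 (z test adjusted p 5.01e-22) and -1.69 (1.50e-08). DDIT4 was the exception among the strong members, with -1.97 in DMSO and -1.78 with Nutlin-3a, from the authors' deposited tables and a difference of 0.19 (z test adjusted p 0.448). In siControl cells MXD4 and DDIT4 stood at 2766 and 7731 with Nutlin-3a and at 715 and 6416 in DMSO, computed from the authors' deposited tables. That Nutlin-3a response shares the siControl Nutlin-3a libraries with the knockdown comparison, so the values are given side by side only.

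Mitotic genes fell in 33 of 47 cases in DMSO (median -0.29) in the authors' deposited table, and the difference was below 0 for 32 and above 0 for KIF20A (1.10). DLGAP5 went from 3612 to 3340 in DMSO, where it was not called, and from 115 to 29.3 in Nutlin-3a, computed from the authors' deposited tables, a difference of -1.87 (z test adjusted p 3.38e-19). DNA replication genes differed from this: 31 of 40 fell in DMSO (median -0.36) in the authors' deposited table, and the difference was above 0 for 6 and below 0 for 6. The p53-activated genes rose in 31 of 38 cases in DMSO (median 0.63) in the authors' deposited table, and the difference was below 0 for 25 and above 0 for 2. CDKN1A, for one, went from 5493 to 13389 normalized counts in DMSO, computed from the authors' deposited tables, and its difference was -0.93 (z test adjusted p 5.99e-10). Of the ATF4 programme genes, 37 of 39 fell in DMSO (median -0.82) in the authors' deposited table, and the difference was above 0 for 32. DDIT3, a pro-apoptotic factor of that programme, had -1.31 in DMSO and 0.48 with Nutlin-3a, from the authors' deposited tables (difference 1.79, z test adjusted p 2.22e-30).

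For the ER chaperones, 9 of 20 fell and 2 rose in DMSO (median -0.12) in the authors' deposited table, and the difference was above 0 for 12. HSPA5 had -0.27 in DMSO and 0.38 with Nutlin-3a, from the authors' deposited tables. Cytosolic ribosomal proteins fell in 16 of 78 cases in DMSO (median -0.05), a share near the 23.2% of all genes, in the authors' deposited table. Their difference was below 0 for 5 of the 78, against 590 of all 11517 genes. Mitochondrially encoded mRNAs rose in 11 of 13 cases in DMSO (median 0.88) in the authors' deposited table, and the difference was called for 0 of 13 by the z test (1 at an unadjusted p below 0.05), with values between 0.19 and 0.65. Interferon-stimulated genes rose in 10 of 17 cases in DMSO (median 0.41) in the authors' deposited table, and the difference was called only for PARP9 among these 17 (-0.48, z test adjusted p 0.0225). Among the WNT ligands with a mean of 50 or more, the difference was above 0 for WNT7B (1.15) and below 0 for WNT16 (-0.43). It was also above 0 for WNT4 (1.57). WNT4 passed the mean filter only through the siRFX7 Nutlin-3a group, so the sign of its difference is partly fixed by the filter.

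**Figure D5:**
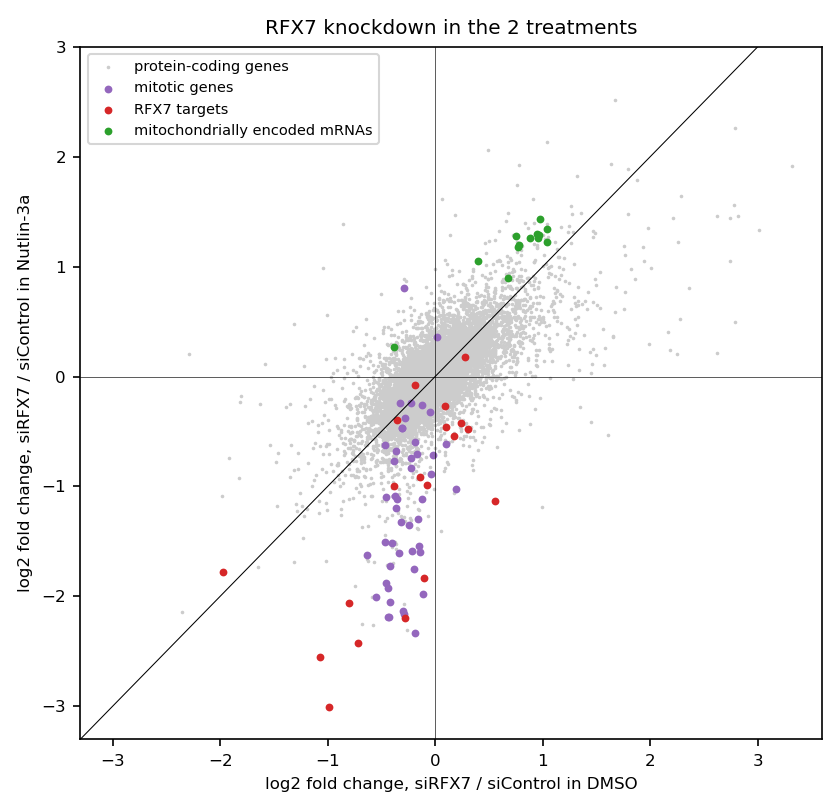
Log2 fold change of siRFX7 over siControl in Nutlin-3a (vertical) against that in DMSO (horizontal), 1 point per gene for 11517 protein-coding genes, from the authors' deposited tables, with the line of equal effects. Most mitotic genes (purple) and RFX7 targets (red) lie below the line, with list medians of -1.12 and -0.99 in Nutlin-3a against -0.29 and -0.14 in DMSO, and the mitochondrially encoded mRNAs (green) have medians of 1.26 and 0.88.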

How the data were processed

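PolyA RNA was measured in 12 libraries, 4 groups of 3. Per the submitters' processing notes, the tools included bcl2fastq 2.20.0.422, Trimmomatic 0.39, FastQC 0.11.9, cutadapt 2.10, SAMtools 1.10, Picard, featureCounts 1.6.5 and DESeq2 1.20.0, with build hg38; the aligner, the annotation, the strand setting and the treatment of multimapping reads are not given in the sources used here. The files used are 4 DESeq2 result tables made by the authors. Per the file headers, each gives a mean normalized count, which is a signal (counts divided by size factors, averaged), a log2 fold change with its standard error in log2 units, a test score, and a p-value and adjusted p-value; the authors computed all of them. Values per library were not used here, so the depth of single libraries is unknown, and precision is that of the authors' standard errors.

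Genes were called at the authors' deposited adjusted p-value below 0.05. Checks showed that the adjusted p is Benjamini-Hochberg over the genes listed, that the score is the log2 fold change over its standard error, and that the fold changes of the 4 tables close to within 1.27e-14. The authors' fit may thus hold all 4 groups. In that case the standard errors of the Nutlin-3a comparison also draw on the spread of the DMSO libraries, and the reverse. Group means were computed from the deposited signal and log2 fold changes, taking the mean of the 4 group means as the mean normalized count. The difference of the siRFX7 effects was put to a two-sided z test, with standard errors added in squares and Benjamini-Hochberg adjustment over all genes in both tables; it takes the standard errors as known. Only this z test was tried on simulated data, drawn as normal values with the deposited standard errors, so that trial does not check the standard errors themselves.

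The genes and the 33 gene lists were chosen with earlier results of these data known, and the mitochondrial list after the tables were read; some genes stand in several lists. Named genes are RFX7, the 15 largest falls and the 15 largest rises among called genes, and list members where a list is described; BRD8 and CDC23 were added after their values were seen. Positions of genes are from GENCODE 29 (23164 of 23195 matched by identifier), and promoter windows from RefSeq GRCh38.p14. Alternatives were stricter thresholds, other filters and other scalings. Python 3.11.15, pandas 2.3.3, numpy 2.4.6, scipy 1.17.1 and matplotlib 3.10.9 were used. The values of some list members are not reported here.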

Additional observations from a re-analysis of the deposited data

Results flagged for a closer look

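Each gene here is 1 of the 30 named falls and rises whose siRFX7 effect differed between the treatments by the two-sided z test of the difference, Nutlin-3a minus DMSO, adjusted over all genes. This held for 19 of the 30, 13 falls and 6 rises. Among the falls the differences on the log2 scale were -2.04 for ZNF367, -2.01 for MXD4, -1.92 for RFX5, -1.88 for NEK2, -1.84 for SPC25, -1.79 for GTSE1, -1.76 for ASPM, -1.75 for ESCO2, -1.71 for PNRC1, -1.68 for KIF18B, -1.57 for MCM10, -1.48 for TSPYL2 and -1.26 for PDCD4. Among the rises, the siRFX7 effect was larger in Nutlin-3a for WNT4 (1.57), LAMP3 (1.55), MDGA1 (1.14) and MYLK (0.99). It was larger in DMSO for CPLX2 (-1.40) and CPA4 (-1.22). CPA4 went from 213 to 1463 normalized counts in DMSO and LAMP3 from 119 to 124, computed from the authors' deposited tables. The genes were chosen by their Nutlin-3a effect, which favours differences of the same sign as that effect. WNT4 also passed the mean filter only through the siRFX7 Nutlin-3a group.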

How the results depend on the processing

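No paired analysis was possible because the files hold no values per library; leaving out each replicate in turn was not run for the same reason. Requiring an absolute log2 change of 0.58 kept 900 of the 4606 called genes, 472 higher and 428 lower. For the difference of the siRFX7 effects, an adjusted p below 0.01 left 828 of 1343 genes and a minimum absolute difference of 0.58 left 423. Equal total counts gave 2864 genes higher and 1848 lower in Nutlin-3a. The other filters, adjustments and scalings kept the counts within 1.5 times of those reported. All 30 named genes kept direction and call under the 3 alternatives run for them, except that PRC1 (DESeq2 adjusted p 0.0181) was not called below 0.01. Their directions could not have reversed. A stricter p leaves the log2 values as they are, and equal totals and centring only subtract a constant, -0.027 and 0.012. Of 99 list values under each of the 3 alternatives, 5 moved with the stricter p, 3 with equal totals and 1 with centring on the median. The 99 include the medians of the 33 lists, which a stricter p cannot change. Standard errors near 0.22 for means of 50 to 100 limit what can be called there.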

Other observations

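Outside the protein-coding genes, listed genes with a mean normalized count of 50 or more included 1451 processed pseudogenes, 194 antisense genes and 158 lincRNAs. Of the processed pseudogenes, 83 were higher and 245 lower with siRFX7 in Nutlin-3a by the authors' deposited DESeq2 adjusted p, so that 22.6% changed. Many processed pseudogenes are copies of ribosomal protein genes and can share their reads. The authors' deposited table called 19 antisense genes higher and 36 lower, and 11 lincRNAs higher and 25 lower. Without a known strand setting, reads of an antisense gene and of its partner cannot be told apart.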
